A study of Homo sapiens with 6 samples.

Results

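TEM4-18 and TEM2-5 are 2 human cell lines that were isolated on separate occasions from PC-3 prostate cancer cells after these had crossed a confluent layer of a human microvascular endothelial line from the lung. They were compared here with each other, by the titles of their arrays: 2 arrays of TEM4-18 against 2 arrays of TEM2-5, which are 4 of the 6 arrays of the series. The other 2 arrays hold the parental PC-3 line, itself derived from a bone metastasis, and are given as a reference level. All 3 lines grew in the same medium with fetal bovine serum, and the labels name no edited gene and no drug. The labels call TEM2-5 a biological replicate of TEM4-18, so the comparison asks how far 2 isolates of 1 selection procedure share their expression. Each line is 1 isolate, and the labels do not say whether it is a clone, nor whether its 2 arrays came from separate cultures. The p-values therefore measure the spread between arrays, which may be technical, and a difference belongs to these isolates, not to selection in general. Replicate numbers come from the array titles, since 1 TEM2-5 source name contradicts its title. In RNA of whole cultures, fewer cells that express a gene and less RNA per cell cannot be told apart.

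Carcinoma cells of epithelial type are held together by adherens junctions, tight junctions and desmosomes, and their gene programme is kept up by transcription factors such as GRHL2, OVOL1 and EHF and by the splicing factor ESRP1. In the epithelial-mesenchymal transition (EMT), repressors such as ZEB1, SNAI2 and TWIST1 bind short E-box motifs in the promoters of epithelial genes and lower their transcription, while vimentin, fibronectin and N-cadherin are the usual mesenchymal markers. Cells can also rest in intermediate states that keep some epithelial genes beside mesenchymal ones.

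Total RNA was measured on short-oligonucleotide arrays of 54675 probe sets, and the median signal of an array was 267 to 317. Log2 signals correlated at 0.981 between the TEM4-18 arrays, at 0.982 between the TEM2-5 arrays and at 0.969 to 0.973 between arrays of different lines. KRT18, a keratin of simple epithelia and of carcinoma cells, was bright on all 4 arrays (28959.7 to 31304), below PC-3 (60110.5 and 58278). On the same marker list KRT8 (6062 to 9416) was also below PC-3 (23433 and 22688). TMPRSS2 gave 3299 and 2705 in TEM4-18 and 2288 and 1703 in TEM2-5, but 94.8 and 106 in PC-3. KLK3 (1016 to 1230) and CTNNA1 (249 to 338) overlapped PC-3 (1301 and 770, 263 and 195). Of 15 endothelial markers, 5 were bright enough to test and 0 differed, and their summed signal was 4295 and 5543 in TEM4-18 and 4626 and 4960 in TEM2-5. Of these, KDR (975.5 to 1869.98), ROBO4 (849.6 to 1094), PECAM1 (505 to 1042) and ESAM (454 to 827) were clearly above the lowest signals on the TEM arrays. PC-3 gave 306 and 146 for KDR, 447 and 648 for ROBO4, 1073 and 736 for PECAM1 and 267 and 291 for ESAM. EGFL7, also tested, gave 391 and 497 in PC-3 and 272 to 313 on the TEM arrays. CDH5 (23.9 to 201) and VWF (40.2 to 301), and the leukocyte gene PTPRC (91.2 to 140), were too dim on these arrays to be tested. Summed leukocyte markers were 1735 and 1965 in TEM4-18 and 1713 and 2079 in TEM2-5. Summed fibroblast markers were 22919 and 25743 in TEM4-18 against 24261 and 27712 in TEM2-5, mostly COL1A1, and the receptor PDGFRA was the 1 of 7 tested members that differed.

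The lines differed mainly by genes that were lower in TEM4-18. Differences are log2(signal + 51.8) of TEM4-18 minus TEM2-5, with the standard error after ±, and a gene was called at an adjusted p under 0.05 in limma (Benjamini-Hochberg over the 26072 tested probe sets), read at its brightest probe set. Of 13393 genes tested, 398 were called (2.97%), 317 of them lower in TEM4-18 (2.37%) and 81 higher (0.605%). By probe sets, 576 of 26072 were called (2.21%), 452 of them lower (1.73%) and 124 higher (0.476%). The lower genes moved further: their median difference was -1.13, 178 reached 2-fold (1.33% of the genes tested) and 71 reached 4-fold. Among the higher genes the median was 0.52, 9 reached 2-fold (0.0672%) and 0 reached 4-fold. The median over all genes tested was -0.0084, with 6932 genes below 0. In all 398 called genes both arrays of a line lay apart from both arrays of the other, which held in either direction for 23.5% (lower) and 20.9% (higher) of all genes tested. Of the 214 called genes with several probe sets, 51 passed in the same direction at every one. Single arrays weighed on the counts: 160 genes were called without TEM2-5 replicate 1, 216 without TEM4-18 replicate 2 and 189 when TEM2-5 replicate 2 was left out. Without the mean-variance trend of the fit, 82 genes were called. In the plot of difference against level, the lower genes fan out at low and middle levels.

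**Figure D1:**
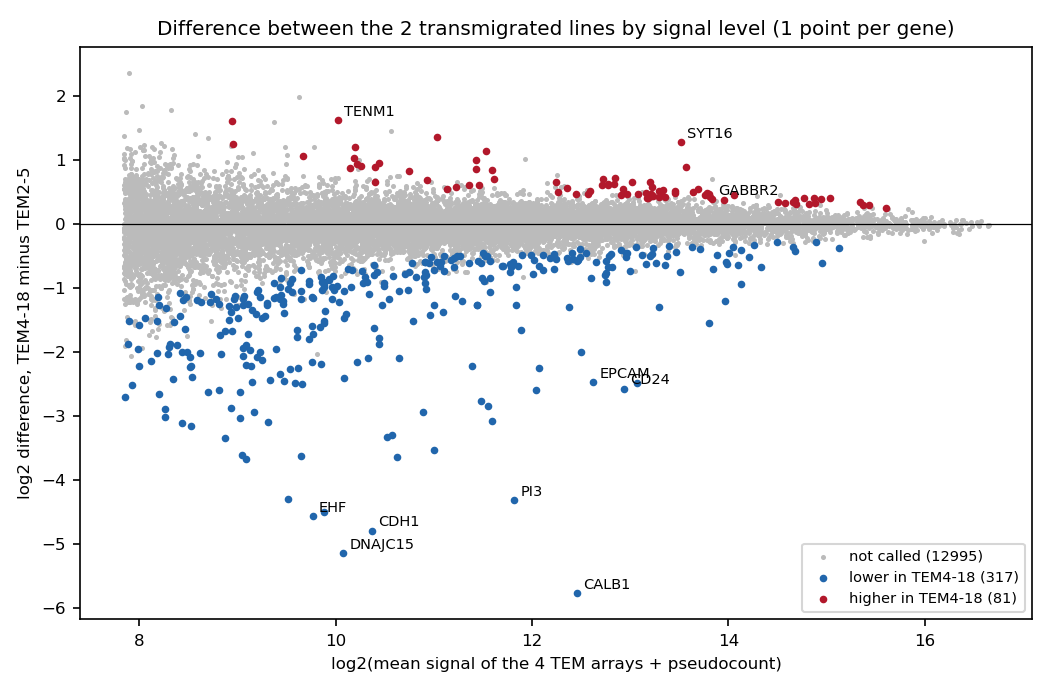
Each point is 1 of 13393 genes, with log2 of the mean signal of the 4 TEM arrays plus the pseudocount on the x axis and the log2 difference TEM4-18 minus TEM2-5 on the y axis. The 317 genes called lower in TEM4-18 reach down to -5.77 (CALB1), while the 81 called higher stay at or below 1.63 (TENM1).

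The largest difference was that of CALB1, which codes for the calcium buffer calbindin. Its signal was 179 and 124 in TEM4-18, 9899 and 12086 in TEM2-5 and 50899 and 49404 in PC-3 (difference -5.77 ± 0.14, adjusted p = 2.91e-09). DNAJC15, a DNAJ-type co-chaperone of mitochondria, gave 6.42 and 9 in TEM4-18, 2020.4 and 2073 in TEM2-5 and 6027 and 6952 in PC-3 (difference -5.14 ± 0.17, adjusted p = 3.43e-08). PI3, the secreted elastase inhibitor elafin, gave 288 and 299 in TEM4-18, 6475 and 7203 in TEM2-5 and 31743 and 34646 in PC-3 (difference -4.32 ± 0.10, adjusted p = 2.91e-09). In each of the 3, TEM2-5 lay between PC-3 and TEM4-18. CYP1B1, an aryl hydrocarbon receptor target that oxidises oestrogens and xenobiotics, gave 5.03 and 33.4 in TEM4-18, 1070.2 and 1616 in TEM2-5 and 1453 and 2083 in PC-3 (difference -4.30 ± 0.30, adjusted p = 1.66e-05). For CYP1B1 the TEM2-5 and PC-3 signals overlapped, and both TEM4-18 signals were at the low end of the array. IL33, an alarmin of the interleukin-1 family, was uneven between the TEM2-5 arrays, at 1429 and 508, with 12.2 and 27.4 in TEM4-18 (difference -3.68 ± 0.43, adjusted p = 0.000954). MPZL2, an adhesion protein of epithelia, gave 58.9 and 5.54 in TEM4-18 and 897 and 944 in TEM2-5 (difference -3.61 ± 0.27, adjusted p = 3.38e-05). S100A9, a subunit of calprotectin, was likewise uneven in TEM4-18, at 178 and 8.61, against 1256 and 1568 in TEM2-5 (difference -3.63 ± 0.45, adjusted p = 0.00145). Where TEM4-18 lay under the added constant of 51.8, the size of a difference depends on that constant. With a constant of 1, CDH1 stood at -5.98 and DNAJC15 at -7.89, and with 4 times the constant at -3.45 and -3.39. DNAJC15 passed at 2 of its 3 probe sets, and with all 3 averaged its difference was -2.52. MPZL2, which passed at both of its probe sets, stood at -2.35 when they were averaged.

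**Figure D2:**
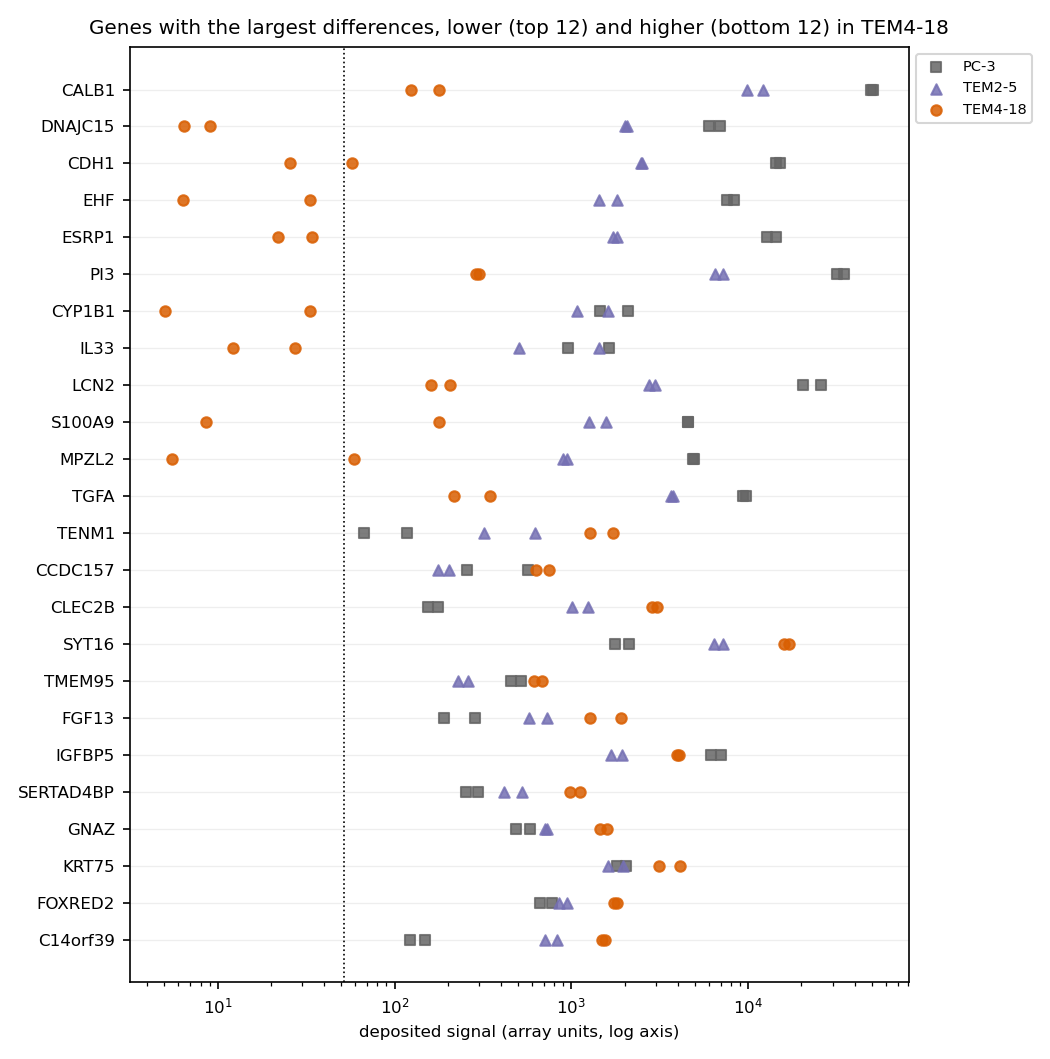
Deposited signal (log axis) on each of the 6 arrays for the 12 genes with the largest negative and the 12 with the largest positive called differences. Circles are TEM4-18, triangles TEM2-5 and squares PC-3, and the dotted line marks the constant of 51.8. TEM4-18 lies left of TEM2-5 in the upper 12 genes and right of it in the lower 12, as the choice of genes required. C14orf39 has the smallest of these differences (0.93).

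Some junction genes, led by the cadherins CDH1 and CDH3, were lower in TEM4-18, while most were not called. Of 14 cadherin and adherens junction genes tested, 3 were lower and 0 higher (median -0.01), against 2.37% and 0.605% of all genes tested. Every list count from here on is to be set beside these shares. Lists were chosen with earlier results of these data known, so no count is a test of its list. CDH1, the E-cadherin gene, gave 25.7 and 57.8 in TEM4-18, 2519.8 and 2479 in TEM2-5 and 14396 and 15147 in PC-3. The difference of CDH1 was -4.79 ± 0.17 (adjusted p = 4.87e-08), and it was kept under all 17 alternative settings. CDH3, the P-cadherin gene, gave 19.2 and 26.1 in TEM4-18, 569 and 660.4 in TEM2-5 and 6809 and 6358 in PC-3 (difference -3.16 ± 0.20, adjusted p = 6.47e-06). For both cadherins TEM2-5 lay between the other lines, and the 3 pairs of arrays did not overlap. JUP, the plakoglobin gene of adherens junctions and desmosomes, gave 1186 and 961 in TEM4-18, 2533 and 1966 in TEM2-5 and 6180.0 and 6811 in PC-3 (difference -1.03 ± 0.15, adjusted p = 0.00475). Tight junction genes were lower at 7 of 20 members tested and higher at 1 (median -0.49). CLDN7, a claudin of the barrier strand, gave 477 and 145 in TEM4-18 and 1591 and 1276 in TEM2-5 (difference -2.19 ± 0.34, adjusted p = 0.00682). LSR, which marks tricellular contacts, gave 227 and 127 in TEM4-18 and 584 and 1028 in TEM2-5 (difference -1.89 ± 0.26, adjusted p = 0.00331). The pairs of TEM arrays did not overlap in any tight junction gene called, as in all 398 called genes. OCLN, the occludin gene, gave 507 and 369.9 in TEM4-18 and 1216 and 1482 in TEM2-5 (difference -1.52 ± 0.17, adjusted p = 0.000607). CGN, the cytoplasmic linker cingulin, gave 128 and 224 in TEM4-18 and 739 and 585 in TEM2-5 (difference -1.67 ± 0.25, adjusted p = 0.00545). The coxsackievirus receptor gene CXADR (-1.39), CRB3 of the apical Crumbs complex (-1.48) and CLDN11 (-0.99) were the other members called lower. PALS1, a scaffold of the same Crumbs complex, went the other way, with 25132 and 26788 in TEM4-18 and 20194 and 20856 in TEM2-5 (difference 0.34 ± 0.07, adjusted p = 0.034). Among 9 desmosome genes, 1 was lower, with a list median of -0.06. DSP, desmoplakin, which ties desmosomes to keratin filaments, gave 3097 and 2947 in TEM4-18, 7756 and 7195 in TEM2-5 and 17593 and 17193 in PC-3 (difference -1.29 ± 0.09, adjusted p = 1.22e-05). The calls rested on single arrays for some members, since an adjusted p over the threshold came for JUP, CLDN7 and CGN without TEM2-5 replicate 1 (adjusted p = 0.0577 to 0.0735), PALS1 without any 1 of the 4 TEM arrays (0.29 to 0.38, adjusted p = 0.0742 to 0.237), CRB3 without either TEM2-5 array (-1.58 to -1.37, adjusted p = 0.0701 to 0.121), and CLDN11 without TEM4-18 replicate 1 or TEM2-5 replicate 2 (-0.79 to -0.68, adjusted p = 0.0798 to 0.169). When all probe sets of a gene were averaged, the call was lost for CLDN11 (-0.78, adjusted p = 0.105). Without TEM2-5 replicate 1, 4 tight junction genes were called lower in place of 7.

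The list of regulators of the epithelial programme, which also holds PRRG4, was lower in TEM4-18 at 10 of 18 members tested and higher at 1. Its median was -0.75, and the shares of all genes tested were 2.37% and 0.605%. The list was chosen with earlier results of these data known, so the count is not a test of the programme. EHF, an ETS factor of epithelia, gave 33.4 and 6.38 in TEM4-18, 1817 and 1426 in TEM2-5 and 8269 and 7560.5 in PC-3 (difference -4.56 ± 0.21, adjusted p = 5e-07). ESRP1, the epithelial splicing regulator, gave 22.0 and 34.3 in TEM4-18, 1720.2 and 1803 in TEM2-5 and 12778 and 14293 in PC-3 (difference -4.51 ± 0.15, adjusted p = 3.92e-08). Both genes lay under the added constant on both TEM4-18 arrays and far above it in TEM2-5. GRHL2, a grainyhead factor that activates junction genes, gave 236 and 136 in TEM4-18, 1308 and 1184 in TEM2-5 and 4825 and 5285 in PC-3 (difference -2.48 ± 0.20, adjusted p = 5.78e-05). PRRG4, a transmembrane Gla-domain protein that the list carries beside the regulators, gave 289 and 179.8 in TEM4-18, 2752 and 2657 in TEM2-5 and 13018 and 11150.3 in PC-3 (difference -3.29 ± 0.17, adjusted p = 1.61e-06). OVOL1, a zinc-finger factor that opposes EMT, gave 516 and 414 in TEM4-18, 924 and 919.6 in TEM2-5 and 2521 and 2306 in PC-3 (difference -0.92 ± 0.16, adjusted p = 0.0155). The TEM2-5 arrays again lay between TEM4-18 and PC-3 in these 3 genes. The RNA-binding protein gene RBM47 (-2.44), OVOL2 (-1.98), ZNF165 (-1.22), the ETS factor ELF3 (-0.93) and KLF4 (-0.50) were also lower. FOXA2, a forkhead factor of endoderm, was the member called higher, with 11709 and 12163 in TEM4-18, 8903 and 8815 in TEM2-5 and 2255 and 1959.9 in PC-3 (difference 0.43 ± 0.10, adjusted p = 0.0484). A call missed the threshold with an array left out for FOXA2 and KLF4 without any 1 of the 4 TEM arrays (adjusted p = 0.134 to 0.253), OVOL1 without TEM4-18 replicate 2 or either TEM2-5 array (-0.92 to -0.78, adjusted p = 0.0956 to 0.118), ZNF165 without TEM2-5 replicate 2 (-1.13, adjusted p = 0.0727), and ELF3 without either TEM4-18 array or TEM2-5 replicate 1 (-0.99 to -0.75, adjusted p = 0.0656 to 0.21). Averaging all probe sets of a gene ended the call of FOXA2 (0.36, adjusted p = 0.412) and KLF4 (-0.41, adjusted p = 0.13).

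Surface and trafficking genes of epithelia were lower at 14 of 27 members tested and higher at 0 (median -0.74), beside 2.37% and 0.605% of all genes tested. EPCAM, an epithelial adhesion molecule, gave 2035 and 1726 in TEM4-18, 10854 and 10398 in TEM2-5 and 44612 and 42292 in PC-3 (difference -2.47 ± 0.09, adjusted p = 8.73e-08). CD24, a glycosylated surface protein, gave 2363 and 2045 in TEM4-18, 12962 and 13710.5 in TEM2-5 and 34919 and 35215 in PC-3 (difference -2.57 ± 0.09, adjusted p = 3.95e-08). Both genes kept bright signals in TEM4-18, so the lines differed in level and not in whether the gene gave a clear signal. ST14, the membrane protease matriptase, gave 49.2 and 119.7 in TEM4-18, 893 and 1275 in TEM2-5 and 6527 and 8716 in PC-3 (difference -3.09 ± 0.26, adjusted p = 7.86e-05). AP1M2, the epithelial adaptor subunit of basolateral sorting, gave 78.5 and 49.1 in TEM4-18, 749 and 579.5 in TEM2-5 and 3419 and 3432 in PC-3 (difference -2.63 ± 0.22, adjusted p = 7.55e-05). C1orf116, an epithelial gene of poorly known role, gave 65.2 and 194 in TEM4-18, 1048 and 754 in TEM2-5 and 7691 and 9076 in PC-3 (difference -2.47 ± 0.30, adjusted p = 0.0011). For ST14, AP1M2 and C1orf116 alike, TEM2-5 lay between the other lines. Of the 9 other members called lower, the largest differences were those of S100A14 (-2.25), the recycling GTPase gene RAB25 (-2.15), LAD1 (-2.09) and the kinase gene SYK (-2.02), followed by TMEM125 (-1.88), the mucin gene MUC1 (-1.41), BSPRY (-1.22), the protease inhibitor gene SPINT1 (-1.10) and CDS1 (-0.74). The call of single members was lost with an array left out, namely RAB25, SYK and TMEM125 without TEM2-5 replicate 1 (adjusted p = 0.0621 to 0.114), BSPRY without TEM4-18 replicate 2, either TEM2-5 array or PC-3 replicate 2 (-1.32 to -0.91, adjusted p = 0.0513 to 0.178), and CDS1 without TEM4-18 replicate 2 or either TEM2-5 array (-0.86 to -0.59, adjusted p = 0.0742 to 0.257). The calls lost on averaging a gene's probe sets were those of MUC1 (-0.69, adjusted p = 0.111). Without TEM2-5 replicate 1 the list had 9 members called lower in place of 14.

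Of 7 listed keratins tested, 1 was called. KRT8, the partner of KRT18 in simple epithelia, was lower, with 7379 and 6062 in TEM4-18 and 9416 and 9037 in TEM2-5 (difference -0.46 ± 0.10, adjusted p = 0.0352). KRT18 itself gave 29511 and 28959.7 in TEM4-18 and 31304 and 29314 in TEM2-5, and its difference of -0.05 ± 0.06 missed the threshold (adjusted p = 0.798, 95% interval -0.19 to 0.08 unadjusted for the number of genes). KRT75, a keratin of hair follicles outside that list, was called higher, with 4129.8 and 3122 in TEM4-18 against 1961 and 1603 in TEM2-5 (difference 1.00 ± 0.16, adjusted p = 0.00768). In the list of hemidesmosome and laminin-332 genes, which anchor epithelia to the basement membrane, 2 of 6 were lower. ITGB4, the hemidesmosomal integrin subunit, gave 522 and 559 in TEM4-18 and 1944 and 1188 in TEM2-5 (difference -1.41 ± 0.20, adjusted p = 0.00331). This call stood at 1 of the 4 ITGB4 probe sets. LAMB3, a laminin-332 chain, gave 7342 and 8046 in TEM4-18 and 10959 and 12668 in TEM2-5 (difference -0.61 ± 0.12, adjusted p = 0.0245). With arrays left out in turn the threshold was missed by KRT75 without TEM4-18 replicate 1 or TEM2-5 replicate 2 (0.80 to 0.86, adjusted p = 0.0549 to 0.08), KRT8 without TEM4-18 replicate 2 or either TEM2-5 array (-0.49 to -0.32, adjusted p = 0.132 to 0.218) and LAMB3 without any 1 of the 4 TEM arrays (-0.72 to -0.51, adjusted p = 0.054 to 0.184). ITGB4 stood at -0.89 with its probe sets averaged and kept its call.

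**Figure D3:**
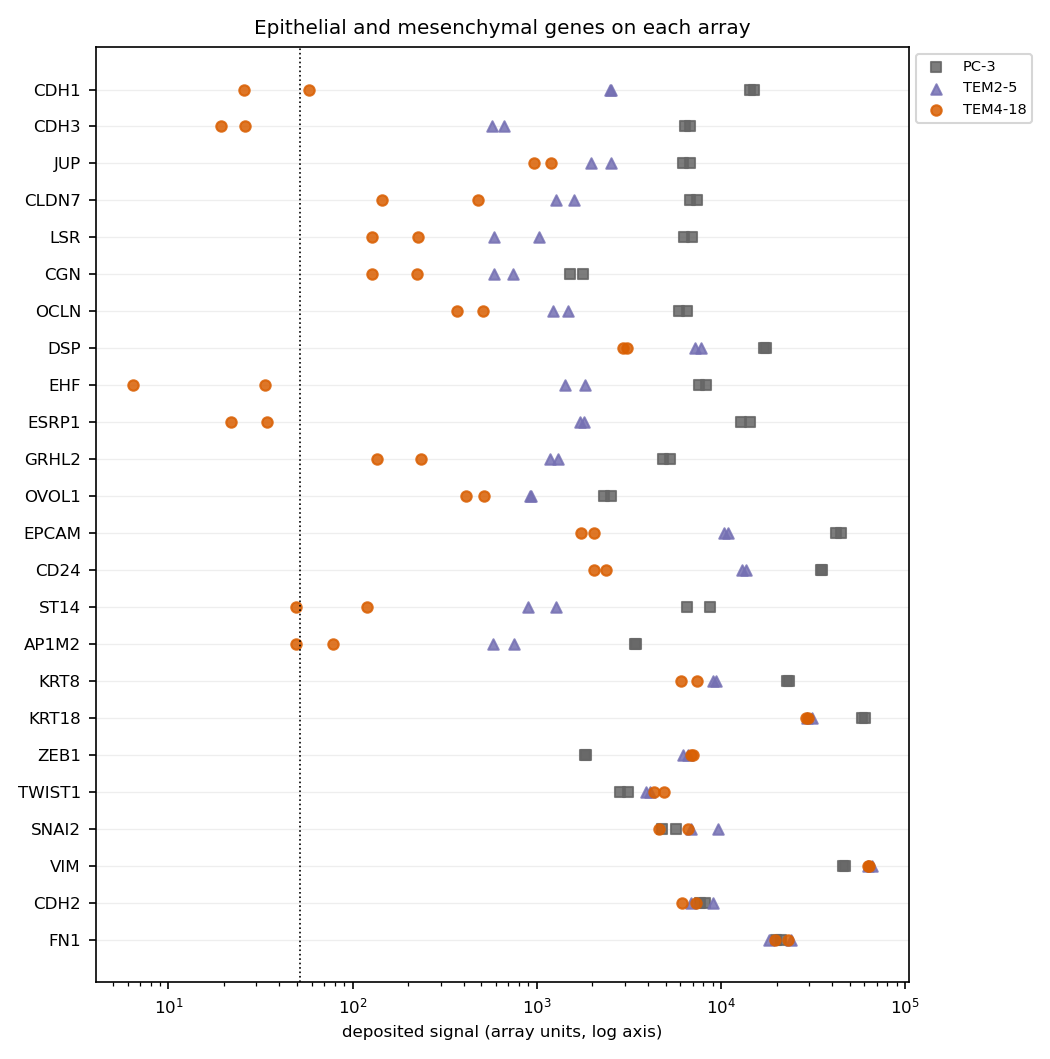
Deposited signal (log axis) of 24 junction, regulator, surface, keratin and mesenchymal genes on each of the 6 arrays, with circles for TEM4-18, triangles for TEM2-5, squares for PC-3 and a dotted line at the constant of 51.8. From CDH1 down to KRT8, TEM2-5 lies between TEM4-18 and PC-3, whereas for KRT18, VIM and the other mesenchymal genes the 2 TEM lines lie close together or overlap.

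The main EMT repressors and mesenchymal markers tested did not pass the threshold between the lines in the main setting. Intervals here are 95% intervals of the difference, unadjusted for the number of genes. ZEB1, the zinc-finger repressor of CDH1 and other epithelial genes, gave 6866 and 7074 in TEM4-18, 6244 and 6594 in TEM2-5 and 1859 and 1824 in PC-3 (difference 0.12 ± 0.10, adjusted p = 0.678, interval -0.09 to 0.33). TWIST1, a basic helix-loop-helix factor, gave 4328 and 4898 in TEM4-18, 3896 and 4127 in TEM2-5 and 3141 and 2837 in PC-3 (difference 0.20 ± 0.11, adjusted p = 0.509, interval -0.05 to 0.44). SNAI2, the repressor Slug, gave 4591 and 6641 in TEM4-18, 6835 and 9658 in TEM2-5 and 4783 and 5670.0 in PC-3 (difference -0.55 ± 0.19, adjusted p = 0.204, interval -0.96 to -0.14). When the replicate number was added to the limma fit as a block, SNAI2 was called lower in TEM4-18 (-0.55, adjusted p = 0.00893). For ZEB1 the interval leaves room for TEM4-18 to be up to 0.33 higher, and for SNAI2 up to 0.96 lower, on the log2 scale. ZEB2 (94.6 to 164 on the 4 TEM arrays) and SNAI1 (35.4 to 306) were too dim to be tested. FOXQ1, a forkhead factor on the same list, was the 1 of 8 tested members that was called, with 131 and 226 in TEM4-18 and 865 and 1007 in TEM2-5 (difference -2.13 ± 0.23, adjusted p = 0.000535). VIM, the vimentin gene, gave 62503 and 63489.5 in TEM4-18, 65699 and 62581 in TEM2-5 and 45941 and 47129 in PC-3 (difference -0.03 ± 0.05, adjusted p = 0.901, interval -0.15 to 0.09). FN1, the fibronectin gene, gave 23173 and 19650.4 in TEM4-18, 23958 and 18273 in TEM2-5 and 19990.0 and 21035 in PC-3 (difference 0.03 ± 0.12, adjusted p = 0.956, interval -0.23 to 0.29). CDH2, the N-cadherin gene, gave 6162 and 7294 in TEM4-18, 6873 and 9025 in TEM2-5 and 7685 and 8187 in PC-3 (difference -0.23 ± 0.13, adjusted p = 0.51, interval -0.52 to 0.05). The arrays of the lines overlapped for VIM, FN1 and CDH2. CD44, a hyaluronan receptor, gave 29482 and 30447 in TEM4-18, 24925 and 28383 in TEM2-5 and 21518 and 22906 in PC-3 (difference 0.17 ± 0.08, adjusted p = 0.366, interval 0.0036 to 0.34). CD44 is read here at the brightest of its 11 probe sets, and with all of them averaged its difference was -0.26 (adjusted p = 0.19), of the opposite sign. For FN1 the averaged difference was -0.11 (adjusted p = 0.838), also of the opposite sign. Of 24 mesenchymal and contractile genes tested, 3 were lower and 0 higher (median -0.02), beside 2.37% and 0.605% of all genes tested. The 3 were NNMT (-1.17), a nicotinamide methyltransferase, the collagen cross-linking enzyme LOXL1 (-0.55) and cadherin-11, CDH11 (-0.37). With an array left out, an adjusted p over the threshold came for LOXL1 without TEM4-18 replicate 1 or either TEM2-5 array (-0.56 to -0.38, adjusted p = 0.155 to 0.172) and CDH11 without any 1 of the 4 TEM arrays (-0.42 to -0.32, adjusted p = 0.0835 to 0.194). With probe sets averaged per gene, the threshold was missed by CDH11 (-0.09, adjusted p = 0.719).

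The promoters of the lower genes were read for the E-box CACCTG and its reverse complement CAGGTG, the hexamer that ZEB and Snail family repressors are known to bind. Sequences are from RefSeq, assembly GRCh38.p14, and run to the base before the annotated transcription start. In the 100 bases upstream, the motif was present in 5.46% of the promoters of all tested genes, in 12.7% of those of all genes called lower in TEM4-18 (31 of 245), in 16.5% of those lower at least 2-fold (22 promoters) and in 1.49% of those of higher genes (1 promoter). In the 250 bases upstream, these shares were 15.9% of 10833 tested genes, 21.6% of 245 genes called lower, 29.3% of 133 genes lower at least 2-fold and 10.4% of 67 higher genes. Over all 27305 promoters of the table they were 6.86% and 17.5%. These are shares of letters in a window, given without a test, and binding was not measured. Of 80 named or listed genes lower at least 2-fold, 57 were read, which need not be all those with an entry. Of the 57 genes read, 13 held the motif within 100 bases. The 6 printed here are some of the junction and epithelial surface or trafficking genes among the 13. They were chosen after their values were seen, to let the place and number of the motif be seen. S100A14 and MUC1, of the same surface list, also hold the motif and are not printed. The printed sequences are written in the direction of the gene, and capitals mark the motif.
AP1M2, chr19:10587313-10587412, minus strand: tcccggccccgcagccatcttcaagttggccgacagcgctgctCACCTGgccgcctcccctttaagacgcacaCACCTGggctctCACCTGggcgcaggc
CRB3, chr19:6464171-6464270, plus strand: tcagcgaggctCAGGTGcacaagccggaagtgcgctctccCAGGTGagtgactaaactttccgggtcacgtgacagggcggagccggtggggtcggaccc
LAD1, chr1:201399325-201399424, minus strand: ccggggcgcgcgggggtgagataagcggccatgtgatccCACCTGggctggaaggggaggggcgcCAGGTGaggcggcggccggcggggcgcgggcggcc
RAB25, chr1:156061060-156061159, plus strand: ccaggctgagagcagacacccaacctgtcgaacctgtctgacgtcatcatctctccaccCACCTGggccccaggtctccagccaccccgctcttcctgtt
OCLN, chr5:69492447-69492546, plus strand: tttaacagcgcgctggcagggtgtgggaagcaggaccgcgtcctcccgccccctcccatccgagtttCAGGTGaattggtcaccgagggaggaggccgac
DSP, chr6:7541571-7541670, plus strand: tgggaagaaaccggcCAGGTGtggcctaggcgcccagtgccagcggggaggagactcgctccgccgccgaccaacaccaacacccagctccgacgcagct
AP1M2 holds the motif 3 times, CRB3 and LAD1 2 times each and RAB25, OCLN and DSP 1 time each. Their differences between the lines were -2.63, -1.48, -2.09, -2.15, -1.52 and -1.29. EHF and DNAJC15, both among the 5 largest differences, have 0 matches in the same window. The rest of those 5, CALB1, CDH1 and ESRP1, were not among the 57 genes read.

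Secreted proteases and their inhibitors were lower at 6 of 32 members tested and higher at 0 (median -0.15), beside 2.37% and 0.605% of all genes tested. SERPINB5, the serpin maspin, gave 1359 and 951 in TEM4-18, 7924 and 6384 in TEM2-5 and 17808 and 15979 in PC-3 (difference -2.59 ± 0.16, adjusted p = 5.43e-06). PLAT, tissue plasminogen activator, gave 2751 and 2351 in TEM4-18, 14144 and 14955 in TEM2-5 and 23935 and 22046 in PC-3 (difference -2.49 ± 0.10, adjusted p = 8.93e-08). Both kept clear signals in TEM4-18 and were highest in PC-3. The secretory leukocyte protease inhibitor gene SLPI (-2.16), the kallikreins KLK5 (-1.71) and KLK6 (-1.17) and cystatin M, CST6 (-1.29), were the other members called lower. Of 10 S100 genes, which code for small calcium-binding proteins, 3 were lower, namely S100A9, S100P (-3.34) and S100A2 (-1.30). An array left out ended the call of CST6 without TEM2-5 replicate 1 (-1.12, adjusted p = 0.0834) and KLK6 without TEM2-5 replicate 2 (-1.01, adjusted p = 0.0818).

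Cytokines and genes responsive to NF-kappaB were lower at 8 of 32 members tested and higher at 1 (median -0.40), beside 2.37% and 0.605% of all genes tested. CXCL8, the interleukin-8 gene, whose product draws neutrophils, gave 790.0 and 587 in TEM4-18, 5352 and 5105 in TEM2-5 and 35072 and 30831 in PC-3 (difference -2.85 ± 0.13, adjusted p = 5e-07). LCN2, the iron-siderophore carrier lipocalin 2, gave 160.1 and 206 in TEM4-18, 2972 and 2764 in TEM2-5 and 20323 and 25840.3 in PC-3 (difference -3.64 ± 0.15, adjusted p = 1.53e-07). IL1B, the interleukin-1 beta gene, gave 858 and 708 in TEM4-18, 2113 and 1807 in TEM2-5 and 2558 and 3139 in PC-3 (difference -1.27 ± 0.16, adjusted p = 0.0015). In these 3 genes TEM2-5 lay between the other lines. The neutrophil chemokines CXCL5 (-1.42), CXCL6 (-1.37), CXCL2 (-1.14) and CXCL1 (-0.81) were lower as well, and so was the transmembrane chemokine CXCL16 (-1.92). Of these, CXCL8, CXCL6, CXCL1, CXCL5 and CXCL2 are neighbours on chromosome 4 and lie in the run of 15 tested genes with the lowest median difference of all runs (-0.54, 5 called lower). The other 10 genes of that run were not called, and SLC4A4, ADAMTS3, COX18, ANKRD17 and MTHFD2L, at its edges, had differences above 0. ACKR3, a scavenging receptor for CXCL12, was the member called higher, with 1509 and 1915 in TEM4-18, 852 and 945 in TEM2-5 and 341 and 432 in PC-3 (difference 0.88 ± 0.19, adjusted p = 0.0411). The threshold was missed with an array left out by CXCL16 without TEM2-5 replicate 1 (-1.59, adjusted p = 0.148), ACKR3 without any 1 of the 4 TEM arrays (0.72 to 1.05, adjusted p = 0.0662 to 0.311), CXCL2 without TEM4-18 replicate 2 or TEM2-5 replicate 1 (-1.09 to -0.93, adjusted p = 0.068 to 0.155) and CXCL1 without TEM2-5 replicate 2 (-0.67, adjusted p = 0.0761).

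Interferon-stimulated genes, which act in antiviral defence, were lower at 10 of 40 members tested and higher at 0, beside 2.37% and 0.605% of all genes tested. Below 0 lay 34 of the 40 (median -0.54), beside 6932 of the 13393 genes tested. IFIT2, which binds viral RNA, gave 579.8 and 463 in TEM4-18 and 1753 and 1343 in TEM2-5 (difference -1.48 ± 0.18, adjusted p = 0.0013). IFIT1, a sensor of uncapped RNA, gave 1165 and 1312 in TEM4-18 and 2600.5 and 2483 in TEM2-5 (difference -1.01 ± 0.14, adjusted p = 0.00375). OASL, an OAS-like protein, gave 412 and 466 in TEM4-18 and 1169.8 and 953 in TEM2-5 (difference -1.18 ± 0.17, adjusted p = 0.00362). The arrays of the TEM lines did not overlap in any of these, as in all 398 called genes. IFIH1 (-1.31), IFI44L (-1.20), IFI44 (-1.16), OAS1 (-1.08), DDX60L (-0.98), IFIT3 (-0.72) and PARP12 (-0.71) were the other members called. The list depended on single arrays: 2 members were called lower without TEM2-5 replicate 1, where the median was -0.34, and 4 without TEM4-18 replicate 2. Of 20 antigen presentation genes 2 were lower. HLA-B gave 4888 and 5246 in TEM4-18 and 9502 and 7831 in TEM2-5 (difference -0.76 ± 0.10, adjusted p = 0.00225), and HLA-C had a difference of -0.73 ± 0.08 (adjusted p = 0.000842). Probe sets of HLA genes can share sequence, so the 2 HLA values may not be separate measurements. Calls were lost with an array left out for OASL and IFIT3 without TEM2-5 replicate 1 (adjusted p = 0.0592 to 0.105), IFIH1 without TEM4-18 replicate 2, either TEM2-5 array or either PC-3 array (-1.40 to -1.07, adjusted p = 0.0515 to 0.2), IFI44L without TEM4-18 replicate 2 or TEM2-5 replicate 1 (-0.94 to -0.92, adjusted p = 0.194 to 0.27), IFI44 without TEM4-18 replicate 2, TEM2-5 replicate 1 or either PC-3 array (-1.16 to -0.81, adjusted p = 0.0501 to 0.318), OAS1 without either TEM4-18 array, either TEM2-5 array or either PC-3 array (-1.15 to -1.01, adjusted p = 0.0636 to 0.22), DDX60L without TEM4-18 replicate 2 or either TEM2-5 array (-1.04 to -0.75, adjusted p = 0.141 to 0.183), and PARP12 without any 1 of the 4 TEM arrays (-0.74 to -0.67, adjusted p = 0.119 to 0.197). When all probe sets of a gene were averaged, the call was lost for OAS1 (-1.22, adjusted p = 0.0864). IFIT2 stood at -2.26 with its probe sets averaged and kept its call.

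Signalling genes differed at a few ligands and receptors. Of 10 genes of the EGF receptor family and its ligands, 3 were lower and 0 higher (median -0.43), beside 2.37% and 0.605% of all genes tested. TGFA, an EGF receptor ligand, gave 345 and 217 in TEM4-18, 3659 and 3759.6 in TEM2-5 and 9391 and 9709 in PC-3 (difference -3.53 ± 0.17, adjusted p = 5.86e-07). ERRFI1, a feedback inhibitor of the receptor, gave 14502 and 17151 in TEM4-18 and 25533 and 24839 in TEM2-5 (difference -0.67 ± 0.09, adjusted p = 0.00353). EGFR itself gave 7141 and 8763 in TEM4-18 and 10299 and 11678 in TEM2-5 (difference -0.47 ± 0.11, adjusted p = 0.0492), a call made at 1 of its 7 probe sets. Of 33 other growth factor genes, 3 were lower and 2 higher. IGFBP2, an insulin-like growth factor binding protein, gave 24.8 and 15.9 in TEM4-18, 605 and 532 in TEM2-5 and 3169 and 2988 in PC-3 (difference -3.11 ± 0.23, adjusted p = 2.93e-05). IGFBP5, a second protein of that family, gave 4059 and 3964 in TEM4-18, 1926 and 1681 in TEM2-5 and 6151 and 7029 in PC-3 (difference 1.13 ± 0.11, adjusted p = 0.000315). These binding proteins differed in opposite directions, and IGFBP5 was highest in PC-3. The call of IGFBP5 stood at 2 of its 6 tested probe sets. PDGFRA, a platelet-derived growth factor receptor, was highest in TEM2-5, with 685 and 434 in TEM4-18, 2904 and 2170.3 in TEM2-5 and 1062 and 889 in PC-3 (difference -2.10 ± 0.22, adjusted p = 0.000396). FGF13, an intracellular FGF homologue, was higher (1.20), and the KIT ligand gene KITLG was lower (-0.63). The call stood at 1 of 2 tested probe sets for PDGFRA and at 1 of 3 for KITLG. The calls that ended with an array left out were those of FGF13 without TEM4-18 replicate 2 or either TEM2-5 array (0.92 to 1.36, adjusted p = 0.112 to 0.323), EGFR without TEM4-18 replicate 1, either TEM2-5 array or either PC-3 array (-0.56 to -0.32, adjusted p = 0.0621 to 0.286) and KITLG without TEM4-18 replicate 1 or either TEM2-5 array (-0.68 to -0.51, adjusted p = 0.104 to 0.165). Averaging all probe sets of a gene ended the call of EGFR (-0.28, adjusted p = 0.479).

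In TGF-beta, activin and BMP signalling, 4 of 37 genes were lower and 0 higher (median 0.0023), beside 2.37% and 0.605% of all genes tested. FST, follistatin, which binds activins, gave 6346 and 8219 in TEM4-18, 22046 and 20342 in TEM2-5 and 37926 and 37866 in PC-3 (difference -1.55 ± 0.11, adjusted p = 1.57e-05). INHBA, the activin A subunit, gave 2913 and 3034 in TEM4-18 and 4989.9 and 5363 in TEM2-5 (difference -0.79 ± 0.09, adjusted p = 0.000991). GDF15, a stress-induced ligand, gave 343 and 299.7 in TEM4-18 and 1595 and 957 in TEM2-5 (difference -1.79 ± 0.24, adjusted p = 0.00227). FST and INHBA code for a binding protein and its ligand, and both were lower in TEM4-18. BAMBI, a decoy receptor, was the other member called (-1.26). Of 17 Notch genes, 2 were lower: the receptor NOTCH3 (-1.52) and the target HEY1 (-0.64), which was higher in TEM2-5 (13837 and 11657) than in PC-3 (5292 and 4080.3). In WNT signalling 0 genes were called lower and 2 of 27 higher (median 0.19): the ligand WNT5A (0.44) and the receptor FZD4 (0.66). LGR5, an R-spondin receptor of the same list, gave 2058 and 2288 in TEM4-18, 737 and 777 in TEM2-5 and 6.34 and 108 in PC-3. Its difference of 1.46 ± 0.38 missed the threshold (adjusted p = 0.0904, interval 0.61 to 2.30) although the arrays of the TEM lines did not overlap. The fit shares 1 spread over the 3 lines, and the PC-3 arrays of LGR5 differ widely on the log scale. With only the 4 TEM arrays in the fit, LGR5 was called (adjusted p = 0.000556), and without PC-3 replicate 1 or 2 it was called too (adjusted p = 0.0016 and 0.00316). Without 1 array the adjusted p was over the threshold for FZD4, WNT5A and HEY1 without any 1 of the 4 TEM arrays (adjusted p = 0.0549 to 0.277), BAMBI without TEM2-5 replicate 1 (-1.15, adjusted p = 0.104), and NOTCH3 without TEM4-18 replicate 1, either TEM2-5 array or either PC-3 array (-1.79 to -1.24, adjusted p = 0.0706 to 0.257). The calls lost on averaging a gene's probe sets were those of HEY1 (-0.58, adjusted p = 0.0585).

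Genes for adhesion to endothelium, a step before crossing it, gave 0 called members of 21 in limma in either direction (median -0.02). At an unadjusted p under 0.05 there were 7, beside 3446 of all 26072 probe sets tested. Of 14 integrin genes 2 were lower, and of 18 matrix glycoprotein genes 2, beside 2.37% of all genes tested. THBS1, thrombospondin 1, an adhesive matrix protein, gave 661 and 682 in TEM4-18, 4163 and 5726 in TEM2-5 and 21229 and 26727 in PC-3 (difference -2.77 ± 0.15, adjusted p = 2.31e-06). ITGB8, an integrin subunit that activates latent TGF-beta, gave 592 and 495 in TEM4-18, 2267 and 2006 in TEM2-5 and 6408 and 5272 in PC-3 (difference -1.88 ± 0.15, adjusted p = 4.41e-05). TEM2-5 lay between the other lines in both genes. ITGA2 of the collagen receptor (-0.48), EFEMP1 (-0.99), the basement membrane collagen COL4A6 (-1.07) and the ephrin EFNB2 (-1.05) were lower by less. Arrays left out in turn ended the call of COL4A6 and ITGA2 without TEM4-18 replicate 2 or either TEM2-5 array (adjusted p = 0.0535 to 0.184), and EFEMP1 without TEM4-18 replicate 1 or TEM2-5 replicate 2 (-0.80 to -0.74, adjusted p = 0.139 to 0.208). With probe sets averaged per gene, the threshold was missed by EFEMP1 (-0.72, adjusted p = 0.0699), COL4A6 (-1.12, adjusted p = 0.0858) and ITGA2 (-0.48, adjusted p = 0.208).

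Genes of NRF2-dependent and xenobiotic metabolism were lower at 8 of 29 members tested and higher at 0 (median -0.16), the largest after CYP1B1 being an aldo-keto reductase. AKR1C3, which reduces steroids and prostaglandins, gave 300.4 and 284 in TEM4-18, 1945 and 1618 in TEM2-5 and 2321 and 1911 in PC-3 (difference -2.41 ± 0.17, adjusted p = 1.83e-05). In AKR1C3 the TEM2-5 and PC-3 signals overlapped, while both TEM4-18 arrays were lower. ALDH3A1 (-1.99), AKR1C2 (-1.29), AKR1C1 (-1.25), ALDH1A3 (-0.94), the aryl hydrocarbon receptor target TIPARP (-0.70) and GSTM3 (-0.51) were also lower. AKR1C1, AKR1C2 and AKR1C3 are close in sequence, so their probe sets may share signal. Without TEM2-5 replicate 1, 4 members of the list were called lower in place of 8. HPGD, which breaks down prostaglandins, was the 1 of 13 prostate lineage genes called, with 2270.0 and 1306 in TEM4-18 and 7051 and 4343 in TEM2-5 (difference -1.65 ± 0.26, adjusted p = 0.00705). The lists of 48 cell cycle genes (median 0.09), 25 cholesterol and fatty acid synthesis genes (median -0.06) and 16 HOX genes (median 0.0021) had 0 called members in limma. At an unadjusted p under 0.05 they had 5, 1 and 3, beside 3446 of all 26072 probe sets tested. Smaller counts came from the lists of MAPK feedback and immediate early genes, with 3 of 25 lower (ETV1, IER3 and SPRY2, -0.67 to -0.49), ATF4 and unfolded protein response genes, with 3 of 28 lower (SLC7A11, HERPUD1 and SEL1L, -0.74 to -0.54), and hypoxia-inducible genes, with 1 of 31 lower (EPAS1 -0.59). Of all genes tested 2.37% were lower, and the hypoxia count is near that share. With an array left out, the call was lost for ETV1, SPRY2 and SEL1L without any 1 of the 4 TEM arrays (adjusted p = 0.0649 to 0.254), ALDH3A1, HPGD and GSTM3 without TEM2-5 replicate 1 (adjusted p = 0.0668 to 0.093), IER3 and HERPUD1 without TEM4-18 replicate 2 or either TEM2-5 array (adjusted p = 0.0508 to 0.213), EPAS1 without TEM4-18 replicate 1 or either TEM2-5 array (-0.64 to -0.48, adjusted p = 0.0652 to 0.139), SLC7A11 without either TEM4-18 array or TEM2-5 replicate 1 (-0.80 to -0.58, adjusted p = 0.0838 to 0.246), AKR1C2 without TEM4-18 replicate 2, either TEM2-5 array or either PC-3 array (-1.47 to -0.92, adjusted p = 0.0573 to 0.332), and AKR1C1 without TEM4-18 replicate 2 or TEM2-5 replicate 1 (-1.08 to -0.96, adjusted p = 0.126 to 0.21). When all probe sets of a gene were averaged, the call was lost for ETV1 (-0.52, adjusted p = 0.167), SEL1L (-0.32, adjusted p = 0.291), ALDH1A3 (-0.26, adjusted p = 0.489) and GSTM3 (-0.41, adjusted p = 0.276).

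**Figure D4:**
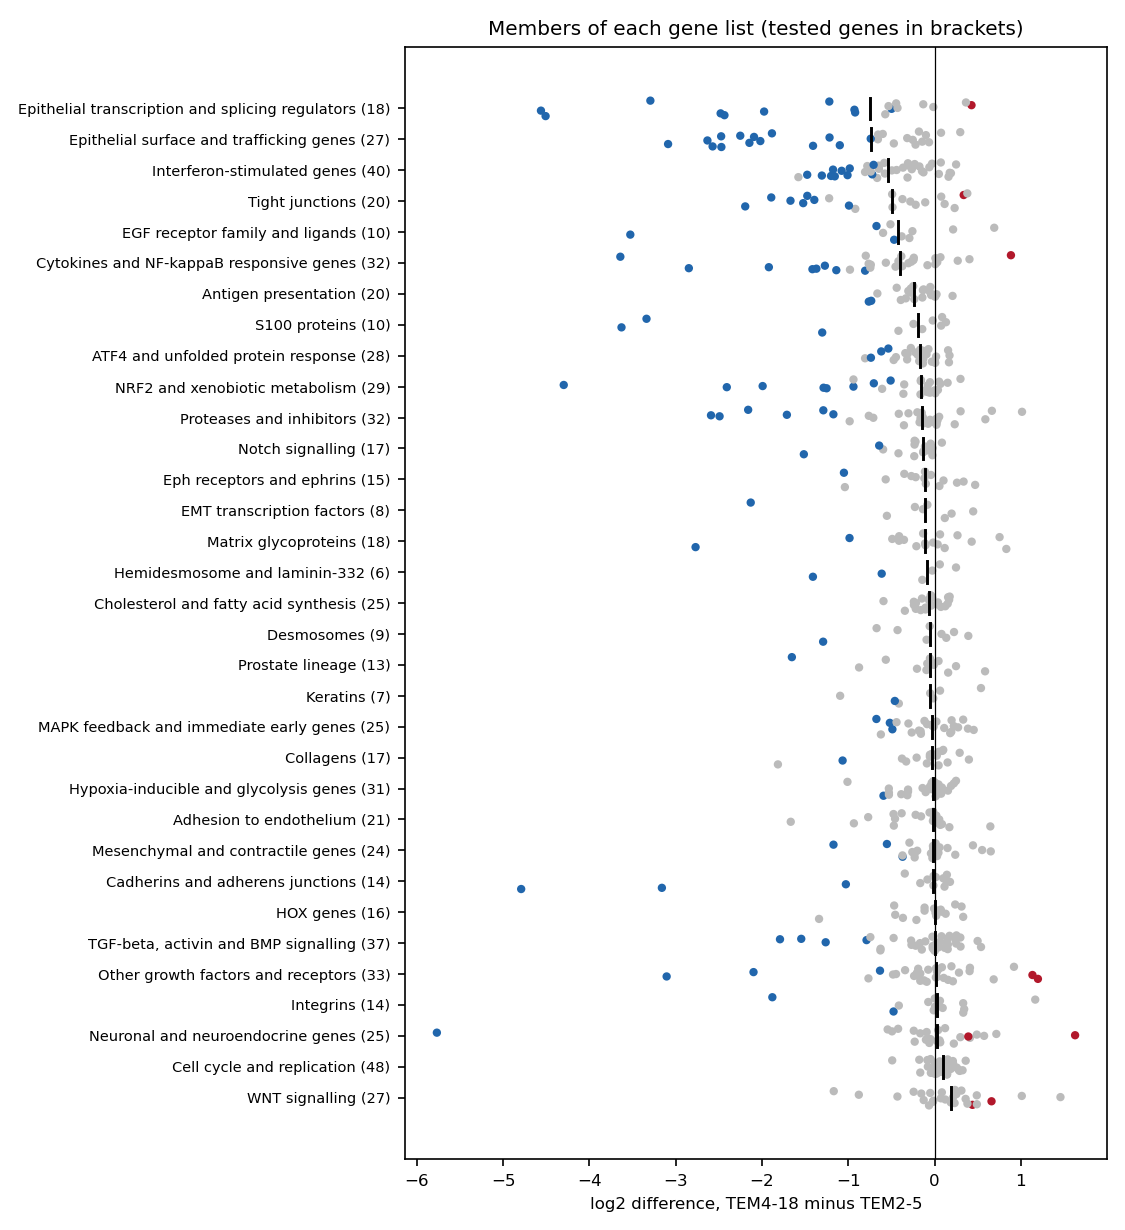
Each point is a tested member of a gene list and its position the log2 difference TEM4-18 minus TEM2-5, with blue for members called lower, red for members called higher, grey for the rest and a black bar for the list median. Lists are in order of their median, from -0.75 for epithelial transcription and splicing regulators to 0.19 for WNT signalling and single members of several lists reach far to the left.

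The genes higher in TEM4-18 differed by less, and most had a larger signal in TEM2-5 than the lower genes had: the median TEM2-5 signal was 6800.4 for the higher genes and 1717 for the lower genes. SYT16, an atypical synaptotagmin, gave 15982 and 17076 in TEM4-18, 6365 and 7236 in TEM2-5 and 2130.1 and 1765 in PC-3 (difference 1.28 ± 0.11, adjusted p = 9.77e-05). CLEC2B, a C-type lectin that binds a receptor of natural killer cells, gave 3042 and 2871 in TEM4-18, 1237 and 1005 in TEM2-5 and 154 and 177 in PC-3 (difference 1.37 ± 0.18, adjusted p = 0.00194). In both genes the signal was lowest in PC-3 and highest in TEM4-18, and both calls were kept in all 17 alternative settings. TENM1, a teneurin of neuronal cell contacts, gave 1281 and 1729 in TEM4-18, 319 and 619 in TEM2-5 and 118 and 67.6 in PC-3 (difference 1.63 ± 0.33, adjusted p = 0.0315). GNAZ, a G protein alpha subunit, gave 1581 and 1446 in TEM4-18, 727 and 706 in TEM2-5 and 587 and 485 in PC-3 (difference 1.03 ± 0.18, adjusted p = 0.0122). CCDC157 (1.62), TMEM95 (1.25), SERTAD4BP (1.07), the oxidoreductase-like gene FOXRED2 (0.95) and C14orf39 (0.93), a synaptonemal complex protein, complete the 12 largest with FGF13, IGFBP5 and KRT75. GABBR2, a GABA receptor subunit, was higher in TEM4-18 by 0.39 ± 0.09 (adjusted p = 0.0492), with 17089 and 15990.4 against 13067 and 12143, beside 1532 and 1526 in PC-3. Most of these calls need all 4 TEM arrays, since the adjusted p was over the threshold for CCDC157, TMEM95, SERTAD4BP, GNAZ, FOXRED2, C14orf39 and GABBR2 without any 1 of the 4 TEM arrays (adjusted p = 0.0574 to 0.295), and TENM1 without either TEM4-18 array or TEM2-5 replicate 1 (1.20 to 1.84, adjusted p = 0.0839 to 0.273). Averaging all probe sets of a gene ended the call of CCDC157 (0.34, adjusted p = 0.664) and SERTAD4BP (0.95, adjusted p = 0.113).

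The higher genes were unevenly spread over the genome. Chromosome 14 held 34 of the 81, which is 7.87% of its 432 tested genes, while the other chromosomes held 47 of 12940 (0.363%). Genes lower in TEM4-18 made up 4.17% of those tested on chromosome 14 and 2.31% elsewhere. Runs of 15 neighbouring tested genes, in the gene order of RefSeq, were ranked by their median difference. The 3 with the highest medians of all 13037 overlapping runs, taken without overlap, were neighbours of each other on chromosome 14 and together span 45 genes from GMFB to WDR89. Since they were picked by their medians, they are described without a test. In this stretch 40 genes lay above 0, whereas 6932 of all 13393 genes tested lay below 0. Both TEM4-18 arrays were above both TEM2-5 arrays in 37, which held for 20.9% of all genes tested. Calls were 16 higher and 0 lower, against 0.605% and 2.37% of all genes tested. The median was 0.37, a fold of 1.29, beside -0.0084 for all genes tested and a 99th percentile of 0.22 over run medians. The calls depended on the fit. Without its mean-variance trend, 4 genes were called higher in all, 1 of them in the stretch. With no filter on dim probe sets, 32 were called higher, 15 of them on chromosome 14 and 7 in the stretch. MNAT1, an assembly factor of the CDK-activating kinase, gave 11689 and 14681 in TEM4-18, 8862 and 9357 in TEM2-5 and 5234 and 5616 in PC-3 (difference 0.52 ± 0.11, adjusted p = 0.0343). PPM1A, a protein phosphatase, gave 16335 and 16739 against 11656 and 12192, with 11510 and 10699.5 in PC-3 (difference 0.47 ± 0.08, adjusted p = 0.0086). TIMM9, an import chaperone of mitochondria, gave 11523 and 12853 against 8145 and 8640.0, with 7596 and 7930 in PC-3 (difference 0.53 ± 0.09, adjusted p = 0.00893). These genes differed by a like amount, while SYT16, C14orf39 and SERTAD4BP of the same stretch differed more. Genes that were not called lay among them, such as HIF1A (0.013) and LGALS3 (0.054). On the same chromosome, 9 further genes were called higher before the stretch and 9 after it. A run farther along, from NOXRED1 to SEL1L, had the second lowest median of the runs listed (-0.54, with 6 of 15 called lower). It holds STON2, an endocytic adaptor (-2.07), CEP128 (-1.04) and SEL1L, part of the machinery that degrades proteins of the endoplasmic reticulum (-0.54). The count of higher calls on chromosome 14 depended on each TEM array, with 13 of 25 without TEM4-18 replicate 1, 3 of 10 without TEM4-18 replicate 2, 3 of 19 when TEM2-5 replicate 1 was dropped and 7 of 19 when TEM2-5 replicate 2 was. The differences themselves depended less on it: in those 4 settings 39 to 43 of the 45 genes lay above 0, and the median was 0.34 to 0.42. Of the genes given here, the threshold was missed in some of the settings without an array by PPM1A and TIMM9 without TEM4-18 replicate 2 or TEM2-5 replicate 1 (adjusted p = 0.0714 to 0.0967), SEL1L without any 1 of the 4 TEM arrays (-0.58 to -0.49, adjusted p = 0.0664 to 0.165), CEP128 without TEM4-18 replicate 2 or TEM2-5 replicate 2 (-0.81 to -0.80, adjusted p = 0.19 to 0.24), STON2 without either TEM2-5 array or either PC-3 array (-2.22 to -1.93, adjusted p = 0.0507 to 0.221), and MNAT1 without TEM4-18 replicate 2 or either TEM2-5 array (0.36 to 0.56, adjusted p = 0.127 to 0.23). The calls lost on averaging a gene's probe sets were those of SEL1L (-0.32, adjusted p = 0.291) and CEP128 (-0.62, adjusted p = 0.278).

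**Figure D5:**
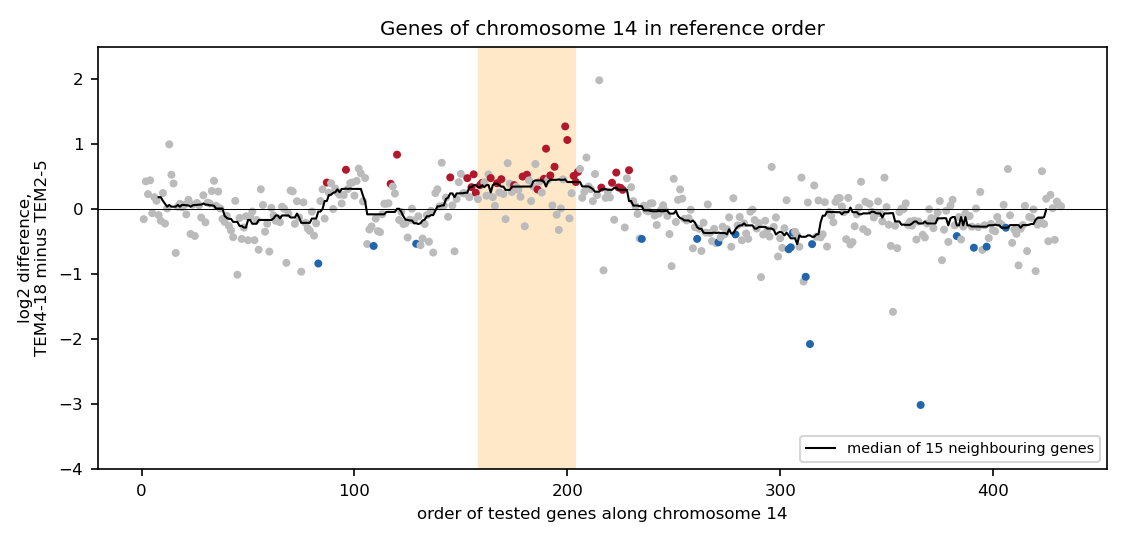
The 432 tested genes of chromosome 14 in reference order (x axis) with their log2 difference TEM4-18 minus TEM2-5 (y axis), red where called higher, blue where called lower and grey otherwise. The line is the median of 15 neighbouring genes, and it lies above 0 through the shaded stretch of 45 genes (median 0.37) and below 0 farther along.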

How the data were processed

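The deposited values are linear signal intensities of probe sets, which the authors computed by MAS5 (per the submitters' processing notes) from total RNA extracted with TRIzol and cleaned on columns, per the labels' protocols. No version is given in the sources used here. The 2% trimmed mean was 1500.17 to 1500.18 on every array, so arrays were taken as already scaled and no further normalization was applied. Scans and detection calls were left aside.

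Of 54675 probe sets, 62 are controls, 41091 carry 1 gene symbol, 1801 several and 11721 none, per the platform annotation, and only those with 1 symbol were used. Matching to a RefSeq gene table (GRCh38.p14) changed 0 symbols and left 54 unmatched. Signals were transformed to log2(signal + 51.8), the 20th percentile of all values, which understates differences of dim genes. Probe sets with a mean over the 4 TEM arrays above 178, the 40th percentile, were tested in limma 3.58.1 (R 4.3.3) with lmFit and eBayes with a mean-variance trend. All 6 arrays entered the fit, with a mean for each of the 3 lines, so PC-3 added to the estimate of spread only. Tests are two-sided. The fit was tested on simulated data. With 2 arrays per line, their number limits the precision.

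Genes named are the 12 largest called differences in each direction, up to 4 called members per list and direction, a set of EMT genes whatever their values, and neighbours in runs of 15 genes. Further called members of a list were named after their values were seen. Members and lists were chosen with earlier results of these data known, and lists are described by counts and medians without a set test. A further list is not reported here. Alternatives changed 1 choice at a time: the added constant, the filter, the normalization, the arrays and probe sets used, the trend, a replicate block and each array left out.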

Additional observations from a re-analysis of the deposited data

How the results depend on the processing

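Main counts were 576 probe sets, 398 genes and 187 genes at least 2-fold apart. With no filter on dim probe sets, 305 probe sets and 213 genes were called, 209 of them among the 398, and with the filter at the 60th percentile 110 genes reached 2-fold, since fewer dim genes were tested. Without the mean-variance trend in limma, 122 probe sets and 82 genes were called, all 82 of them at least 2-fold, and 79 of the 82 were among the 398. The cause of that drop was not tested. Leaving out 1 array gave 229 to 574 probe sets, 160 to 389 genes and 127 to 204 genes at least 2-fold, the lowest each time without TEM2-5 replicate 1. Quantile normalization gave 356 genes, with 79.8% of the called genes lower in TEM4-18 against 79.7% in the main setting. With the replicate number as a block, 902 probe sets and 599 genes were called, including all 398, and 206 genes reached 2-fold. The numbers were not taken as a pairing in the main fit, because nothing in the labels ties same-numbered arrays. Their deviations correlated weakly but above 0, at 0.117 for TEM4-18 with TEM2-5, 0.061 for TEM4-18 with PC-3 and 0.0845 for TEM2-5 with PC-3. Replicate 1 had the higher median signal in each line (296 against 267 in TEM4-18, 310 against 281 in TEM2-5, 317 against 282 in PC-3). Whether same-numbered arrays share an effect was not tested. SNAI2, which missed the threshold in the main setting, was called lower with the replicate block (-0.55, adjusted p = 0.00893). Of 159 called genes followed through 17 settings, 39 kept their call in every setting that tested them, 69 kept it when each array was left out in turn, and 0 changed direction. Signals near the added constant carry little information on how low a gene is in TEM4-18, which concerns the 17 lower genes with a TEM4-18 mean below it.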

Other observations

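Some groups of genes outside the lists were looked at after their values were seen, and are given as values only. Of 12 tested genes of the BEX and TCEAL family and the related genes MAGEH1 and NAP1L3, 5 were lower in TEM4-18 by limma. BEX1, a small protein first known from brain, gave 315 and 219.9 in TEM4-18, 1222 and 1513 in TEM2-5 and 6916 and 8436 in PC-3 (difference -2.16 ± 0.18, adjusted p = 7.86e-05). BEX5 (-1.88), MAGEH1 (-1.73), NAP1L3 (-1.22) and BEX4 (-1.03) were lower too, while BEX3 (0.03) and TCEAL9 (0.05) missed the threshold at high signals in both lines. With an array left out the threshold was missed by BEX4 without TEM4-18 replicate 1 or TEM2-5 replicate 2 (-0.91 to -0.89, adjusted p = 0.0503 to 0.102), BEX5 without TEM2-5 replicate 2 (-1.67, adjusted p = 0.0799), MAGEH1 without TEM2-5 replicate 1 (-1.59, adjusted p = 0.0823) and NAP1L3 without TEM4-18 replicate 2 or either TEM2-5 array (-1.33 to -1.11, adjusted p = 0.0506 to 0.117).

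Of 9 tested genes for secreted proteins of mucosal surfaces, 6 were lower in TEM4-18, PI3 among them. TFF2, a trefoil peptide, gave 93.2 and 34.0 in TEM4-18, 1071 and 684 in TEM2-5 and 1675 and 1561 in PC-3 (difference -3.03 ± 0.30, adjusted p = 0.0003). AGR2, a disulfide isomerase of mucin-producing cells, gave 1837 and 1085 in TEM4-18, 8554 and 5539 in TEM2-5 and 18778 and 12155 in PC-3 (difference -2.24 ± 0.26, adjusted p = 0.000968). The transcobalamin TCN1 (-2.21), TFF1 (-1.78) and gastrokine 2, GKN2 (-1.66), were lower as well, and TFF3, WFDC2 and PIGR missed the threshold (0.55, -0.19 and -0.32). With arrays left out in turn the adjusted p was over the threshold for TCN1 without TEM2-5 replicate 1 (-1.84, adjusted p = 0.0618).

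Of 10 tested genes of the interleukin-1 family and the inflammasome, IL33 and the adaptor gene PYCARD were lower. PYCARD gave 56.9 and 232 in TEM4-18, 709 and 622 in TEM2-5 and 1802 and 1524 in PC-3 (difference -2.03 ± 0.37, adjusted p = 0.0165). The call was lost for PYCARD without either TEM2-5 array (-2.12 to -1.94, adjusted p = 0.0859 to 0.133).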
